A study of Mus musculus with 4 samples.

Results

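Toll-like receptors are the subject of this comparison, in which 10 mouse genes were listed by name, Tlr1 to Tlr9 and Tlr13. A gene entered through the probe that the array's annotation pairs with its symbol alone, a rule that used no measured value. By it, 9 of the 10 receptors were found among 19938 genes, each with 1 such probe, and Tlr5 was not analysed here. RNA of visceral mesothelium, taken from the omentum, and of parietal mesothelium, teased from the skeletal muscle of the body wall, was hybridized to 4 Affymetrix Mouse Gene 1.0 ST arrays, 2 per tissue. All RNA came from untreated adult Wt1-cre;Rosa26ReYFP mice on a c57bl/6 background, in which cells that have expressed Wt1 carry a fluorescent reporter. The reporter was not used to sort cells, since RNA was extracted from the peeled tissue itself. It did serve the paper as a purity check, by which cells other than mesothelium made up only a small share. That check was not repeated here, and signals of skeletal muscle markers on the parietal arrays are given below. The animals behind each array are not named, although the labels describe biological replicates, and p-values therefore rest on the spread between these arrays.

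Toll-like receptors recognise molecules of microbes through an outer domain of leucine-rich repeats and signal through an inner TIR domain, which binds adaptors such as Myd88 and Ticam1 and leads to NF-kB and interferon regulatory factors. Tlr1, Tlr2, Tlr4 and Tlr6 act at the cell surface, whereas Tlr3, Tlr7, Tlr8, Tlr9 and Tlr13 act in endosomes and bind nucleic acids. Mesothelial cells are known to respond to bacterial products in the peritoneum, and the omentum also holds milky spots, which are clusters of macrophages and B cells beneath its mesothelium.

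Over all probes, Pearson's r was 0.992 and 0.993 within a tissue and 0.965 to 0.969 between tissues, and array medians were 7.38 to 7.41 on the log2 scale. The labelled tissue was checked against 12 mesothelial markers. Upk3b, a uroplakin of mesothelium, had a log2 signal of 13.59 and 13.65 in visceral mesothelium, against 13.79 and 13.84 in parietal mesothelium. Of these markers 1 was called higher in visceral mesothelium and 6 the other way, while Calb2 was low on every array, at 5.39 to 5.64.

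Sequences before the annotated start sites of the receptor genes are shown first, because 4 of the receptors share a short element there. Windows of 250 bases before each start were taken from RefSeq on the GRCm38.p6 build for 8 of the listed receptors, in 10 windows. These include Tlr5, whereas Tlr4 and Tlr7 had no window and were not searched for any motif. The window of Tlr8 is printed whole, with the matched element in capitals, because Tlr8 had the lowest adjusted p of the receptors measured here. It lies at chrX:167264330-167264579 on the minus strand.
Tlr8: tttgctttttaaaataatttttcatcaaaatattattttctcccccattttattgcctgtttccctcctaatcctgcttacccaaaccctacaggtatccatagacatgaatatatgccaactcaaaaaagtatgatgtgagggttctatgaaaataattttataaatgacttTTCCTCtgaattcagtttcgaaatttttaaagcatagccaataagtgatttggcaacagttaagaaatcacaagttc

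The element in capitals is GAGGAA, the core of a site for PU.1, an ETS factor of myeloid and B cells, and it was searched on both strands. It stands once each in windows of Tlr1, Tlr8, Tlr9 and Tlr13, 4 of the 10 windows, and in 23.3% of all 32851 windows of the same length. The stretches of 30 bases around it are compared here, with the element in capitals, at chr5:64933564-64933593 (minus strand) for Tlr1, chrX:167264389-167264418 (minus strand) for Tlr8, chr9:106222474-106222503 (plus strand) for Tlr9 and chrX:106143180-106143209 (plus strand) for Tlr13. In Tlr8 the element is read on the opposite strand of the gene.
Tlr1: aattaaatgttgGAGGAAgtaggagcttga
Tlr8: tataaatgacttTTCCTCtgaattcagttt
Tlr9: ggagagtggaaaGAGGAAggggttgagggg
Tlr13: aaaaaaagagaaGAGGAAggaaatgtctca

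An NF-kB motif was searched on either strand as GGG, any 3 bases and TTCC. It stands in the windows of Tlr2 and Tlr3 and in 1 of the 2 windows of Tlr6. These are 3 of the 10 windows, against 4.65% of all windows. The matches lie at chr3:83841762-83841791 for Tlr2, chr8:45410572-45410601 for Tlr3 and chr5:64960128-64960157 for Tlr6, all on the minus strand, with the motif in capitals.
Tlr2: taggacacctGGGGAATTCCcacacggagc
Tlr3: agttgtttctGGGAGTTTCCtgcttttgag
Tlr6: tttatacacgGGGTAATTCCaacgagtacc
No window of these receptors held both motifs. An element of interferon regulatory factors, searched on either strand as GAAA, any 2 bases and GAAA, matched only in a window of Tlr6, where 2 matches overlap, against 2.98% of all windows. These matches are descriptions of the letters, and no binding was measured.

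To ask how the receptors differed between the mesothelia, all 19938 genes were fitted together with limma, and a gene was called where its p, adjusted by Benjamini-Hochberg, was under 0.05 and its fold was 1.5 or more. Of the 9 measured receptors, 4 were called higher in visceral mesothelium, namely Tlr7, Tlr8, Tlr1 and Tlr2, and none was called higher in parietal mesothelium, where 0 of 9 passed also without the fold minimum. Of all genes, 9.6% were called, which were 5.22% higher in visceral tissue and 4.39% higher in parietal tissue. Without the fold minimum, Tlr9 and Tlr13 also passed, which made 6 receptors higher in visceral mesothelium, against 7.89% of all genes (6.35% passed in the parietal direction). The median log2 difference of the 9 receptors, visceral minus parietal, was 0.50, against 0.0015 for all genes. All 9 read higher on both visceral arrays than on either parietal array, as did 28.9% of all genes, while 27.4% read lower on both.

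**Figure D1:**
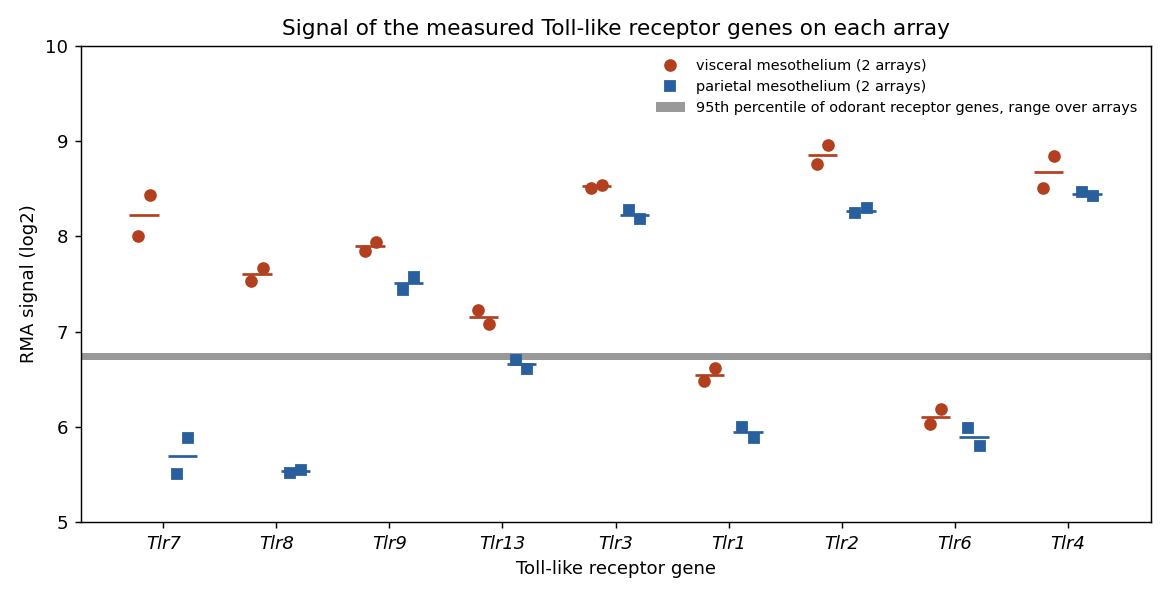
Log2 RMA signal (y axis) of the 9 measured Toll-like receptor genes (x axis), endosomal receptors on the left and surface receptors on the right. Points are single arrays (visceral mesothelium as circles, parietal mesothelium as squares), lines are means of 2 arrays, and the grey band is the 95th percentile of odorant receptor genes (6.70 to 6.78); Tlr7 and Tlr8 lie above the band in visceral and below it in parietal mesothelium.

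The largest differences among the receptors were those of the endosomal receptors Tlr7 and Tlr8, which are neighbours on the X chromosome. Tlr7, which senses single-stranded RNA, had a log2 signal of 8.01 and 8.43 on the visceral arrays, against 5.50 and 5.89 on the parietal arrays. The groups lay far apart, and replicate 2 was the higher array in each tissue. The difference was 2.53 on the log2 scale (standard error 0.19, 95% confidence interval 2.06 to 2.99, adjusted p = 0.000832 from limma). Tlr8, whose human counterpart binds degradation products of RNA, had 7.53 and 7.67 in visceral mesothelium, against 5.51 and 5.55 in parietal mesothelium. Its arrays were close to each other within each tissue, and the difference was 2.07 (standard error 0.09, interval 1.84 to 2.29, adjusted p = 0.000159 from limma). The parietal values of both genes lay among those of odorant receptor genes, which are mostly silent outside the nose, so these differences are between signals and the fold has only a lower bound. Set against the 95th percentile of the odorant receptor genes on the parietal arrays, Tlr7 was at least 2.75-fold and Tlr8 at least 1.79-fold higher in visceral mesothelium. Both passed on leaving out any 1 of the 4 arrays, with differences of 2.32 to 2.74 for Tlr7 and 1.996 to 2.14 for Tlr8. The methods' ANOVA, which estimates the spread from each gene alone, called neither after adjustment (adjusted p = 0.167 for Tlr7 and 0.124 for Tlr8), whereas the adjusted p of limma ran over all its alternatives from 7.70e-05 to 0.00663 for Tlr7 and from 6.36e-05 to 0.00175 for Tlr8.

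The remaining endosomal receptors had smaller estimated differences. Tlr13, which recognises bacterial ribosomal RNA and is also X-linked, had 7.23 and 7.08 in visceral mesothelium, against 6.71 and 6.61 in parietal mesothelium. Its difference of 0.50 (interval 0.26 to 0.73) passed the adjusted p (0.0227 from limma) and missed the fold. Tlr9, the receptor for unmethylated CpG DNA, had 7.85 and 7.95 in visceral mesothelium, against 7.44 and 7.57 in parietal mesothelium, a difference of 0.39 (interval 0.16 to 0.62, adjusted p = 0.0448 from limma) that also missed the fold. Neither Tlr9 nor Tlr13 reached a fold of 1.5, and without 1 array the adjusted p was 0.0842 to 0.208 for Tlr9 and 0.0446 to 0.0995 for Tlr13. Tlr3, the sensor of double-stranded RNA that signals through Ticam1, had 8.51 and 8.54 in visceral mesothelium, against 8.27 and 8.19 in parietal mesothelium. Its difference of 0.30 (interval 0.09 to 0.50) did not pass (adjusted p = 0.0774 from limma).

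Among the surface receptors, Tlr1 and Tlr2, which pair to bind triacylated lipopeptides of bacteria, lay close to the fold that was required. Tlr1 had 6.48 and 6.62 in visceral mesothelium, against 6.00 and 5.89 in parietal mesothelium, a difference of 0.61 (standard error 0.10, interval 0.37 to 0.84, adjusted p = 0.0119 from limma). Tlr2 had 8.76 and 8.96 in visceral mesothelium, against 8.25 and 8.29 in parietal mesothelium, a difference of 0.59 (standard error 0.10, interval 0.34 to 0.83, adjusted p = 0.0153 from limma) which is barely above the fold required. The arrays of the tissues did not overlap for either gene, yet both calls rested on single arrays. Tlr1 was not called without visceral replicate 2 or without parietal replicate 2, and Tlr2 was not called without visceral replicate 2 or without parietal replicate 1, at differences of 0.54 to 0.68 for Tlr1 and 0.49 to 0.69 for Tlr2. Tlr2 also fell below the fold under each of the 3 other normalizations tried.

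Tlr6, the other partner of Tlr2 and the neighbour of Tlr1 on chromosome 5, had 6.03 and 6.18 in visceral mesothelium, against 5.99 and 5.80 in parietal mesothelium. The lower visceral array and the higher parietal array were nearly level, and the difference of 0.21 (interval -0.05 to 0.48) did not pass (adjusted p = 0.277 from limma). Tlr4, the receptor for lipopolysaccharide, had 8.51 and 8.85 in visceral mesothelium, against 8.47 and 8.42 in parietal mesothelium. Only visceral replicate 2 stood apart, and the difference of 0.23 (interval -0.09 to 0.55) did not pass (adjusted p = 0.321 from limma). The intervals of Tlr3, Tlr4 and Tlr6 exclude a fold of 1.5 or more in signal at the 95% level. For Tlr6 this bounds the signal and not the RNA. Its values lay below the 95th percentile of the odorant receptor genes on all 4 arrays. The intervals do not show that the mesothelia were alike in these 3 genes.

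**Figure D2:**
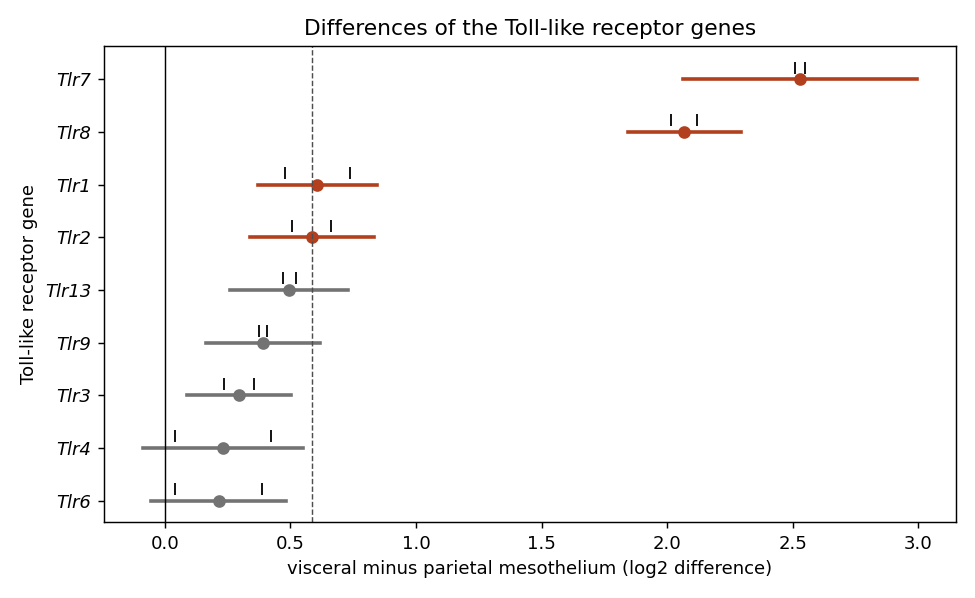
The x axis gives the log2 difference (visceral minus parietal) of the 9 Toll-like receptor genes (y axis). Points with bars are limma estimates with 95% confidence intervals, red where called and grey where not, ticks above each bar are the differences between arrays of the same replicate number, and the dashed line marks a fold of 1.5; the intervals of Tlr7 (2.06 to 2.99) and Tlr8 (1.84 to 2.29) lie far to the right of it, while Tlr1 and Tlr2 straddle it.

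The deposited values carry no detection call, so 1027 odorant receptor genes served as a yardstick for dim probes. Probes differ in affinity, so this is a description and ranks no receptor above another. The 95th percentile of the odorant receptor genes was 6.70 and 6.77 on the visceral arrays and 6.75 and 6.78 on the parietal arrays. Above it lay 7 receptors on each visceral array, and 4 of them, Tlr2, Tlr3, Tlr4 and Tlr9, on each parietal array as well. Tlr7, Tlr8 and Tlr13 were above the mark on the visceral arrays alone. In parietal mesothelium, Tlr7 exceeded 69.6% and 80.1% and Tlr8 69.9% and 71.2% of the odorant receptor genes, and so lay among them. Tlr1 and Tlr6 stayed below the mark on all 4 arrays, so the call of Tlr1 was made among dim values.

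Because 3 of the receptors are X-linked, Xist, the RNA of the inactive X chromosome, was looked up after the values had been seen. Xist was 11.46 and 5.70 in visceral replicates 1 and 2, against 10.91 and 5.75 in parietal replicates 1 and 2. It was thus high in replicate 1 and low in replicate 2 of both tissues. Uty, a Y-linked gene, was 8.77 and 8.98 in visceral mesothelium, against 8.47 and 8.92 in parietal mesothelium. Neither the sex nor the number of animals behind an array is given, so whether the RNA of replicate 1 pooled both sexes, and whether the replicate numbers pair the tissues, was not tested, and the spread between replicates may include such differences. Within the arrays numbered 1 and within those numbered 2, the difference of Tlr7 was 2.51 and 2.55, that of Tlr8 2.02 and 2.12 and that of Tlr13 0.52 and 0.47. The mean of such a pair of differences equals the difference over all arrays by construction, and whether the numbers pair the tissues is unknown. A part of sex in these differences was not tested. Within the same numbers the difference was 0.48 and 0.74 for Tlr1, 0.51 and 0.66 for Tlr2, 0.04 and 0.42 for Tlr4 and 0.04 and 0.39 for Tlr6.

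The receptors were also compared with the rest of their pathway, for which 87 genes were listed in 7 groups and 81 were measured. Of these, 16 were called higher in visceral mesothelium, 2 were called higher in parietal mesothelium, and 63 did not pass. Over all genes the shares were 5.22% higher in visceral and 4.39% higher in parietal tissue, against which the counts of each group are to be read. The groups were chosen with earlier results of these data known, so their counts are descriptions and no group was tested. Of 9 co-receptors and ligand carriers, 7 were higher in visceral mesothelium, with a median log2 difference of 0.81. Ly86 (MD-1), the partner of the Toll-like receptor homologue Cd180, had 10.68 and 10.60 in visceral mesothelium, against 7.66 and 7.81 in parietal mesothelium, a difference of 2.90 (adjusted p = 6.99e-05 from limma). Cd180 itself had 8.65 and 8.61 in visceral mesothelium, against 7.14 and 7.24 in parietal mesothelium, a difference of 1.44 (adjusted p = 0.000391 from limma). Both genes of this complex were thus well separated between the tissues.

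The carriers of lipopolysaccharide were also called. Cd14, which hands lipopolysaccharide to Tlr4, had 8.88 and 8.91 in visceral mesothelium, against 7.95 and 8.002 in parietal mesothelium (difference 0.92, adjusted p = 0.00148 from limma). Ly96 (MD-2), which holds lipopolysaccharide on Tlr4, had 10.61 and 10.71 in visceral mesothelium, against 9.98 and 9.99 in parietal mesothelium (0.67, adjusted p = 0.0052 from limma). Clec7a, the beta-glucan receptor dectin-1 that cooperates with Tlr2, differed by 1.68. Tril, of the same list, went the other way, at 6.93 and 7.13 in visceral mesothelium, against 7.65 and 7.35 in parietal mesothelium. Its difference of -0.47 did not pass (adjusted p = 0.0775 from limma), while 8 of the 9 genes had a positive difference. Tlr4 did not itself pass, unlike Cd14 and Ly96, and the difference between Tlr4 and these 2 genes was not tested.

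Among 11 genes of receptor folding, trafficking and cleavage, 3 were called higher in visceral mesothelium and 1 the other way, at a median difference of 0.19. Unc93b1, which carries nucleic acid-sensing receptors to endosomes, had 9.62 and 9.80 in visceral mesothelium, against 7.85 and 8.17 in parietal mesothelium, a difference of 1.70 (adjusted p = 0.00106 from limma). The chaperones Hsp90b1 and Cnpy3, on which both surface and endosomal receptors depend, differed by 0.30 and 0.11 and did not pass. Of the proteases that cut endosomal receptors, cathepsin S (Ctss) was higher in visceral mesothelium by 2.02 and Lgmn by 0.60. Cathepsins B and L, Ctsb and Ctsl, differed by 0.07 and -0.19 and did not pass. Cathepsin K, Ctsk, which also degrades collagen, had 8.20 and 8.15 in visceral mesothelium, against 10.23 and 9.84 in parietal mesothelium, a difference of -1.86 (adjusted p = 0.000889 from limma).

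Of 10 adaptors and proximal kinases 2 were higher in visceral mesothelium, Btk (0.96) and the adaptor Pik3ap1 (0.72), both also active in B cell receptor signalling. The TIR adaptors did not pass. Myd88, which serves all of these receptors except Tlr3, differed by 0.20 (adjusted p = 0.188 from limma), Tirap by -0.13, Ticam1 by 0.26 and Ticam2 by 0.59 (adjusted p = 0.0526 from limma). Of 9 genes of the TAK1, IKK and TBK1 modules only Ikbkb (0.67), the kinase of the NF-kB inhibitors, was called. Of 11 transcription factors only Irf8 (1.09), a factor of macrophages, dendritic cells and B cells, was called. Fos, a subunit of AP-1, was 8.39 and 7.18 in visceral replicates 1 and 2, against 9.43 and 7.27 in parietal replicates 1 and 2, and so followed the replicate number more than the tissue.

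No gene was called among 12 negative regulators with limma at these thresholds, among them Irak3 (0.43, adjusted p = 0.103), although 1 of them, Cyld, passed without the fold minimum (0.40, adjusted p = 0.0274) and 4 had an unadjusted p under 0.05. Of 19 genes that activated receptors induce, 2 were higher in visceral mesothelium, the co-stimulatory molecules Cd86 (1.38) and Cd80 (1.22). On both parietal arrays Cd86 and Cd80, like Clec7a and Btk, lay below the mark of the odorant receptor genes, so these differences are between signals. The chemokine gene Cxcl10 was higher in parietal mesothelium, at 7.92 and 8.06 on the visceral arrays, against 9.45 and 8.90 on the parietal arrays (-1.19, adjusted p = 0.0115 from limma). Tnf, Il1b and Il6, cytokines typical of acute activation, differed by 0.04, 0.03 and -0.095 and lay between 4.49 and 6.32 on all arrays, below the mark of the odorant receptor genes.

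**Figure D3:**
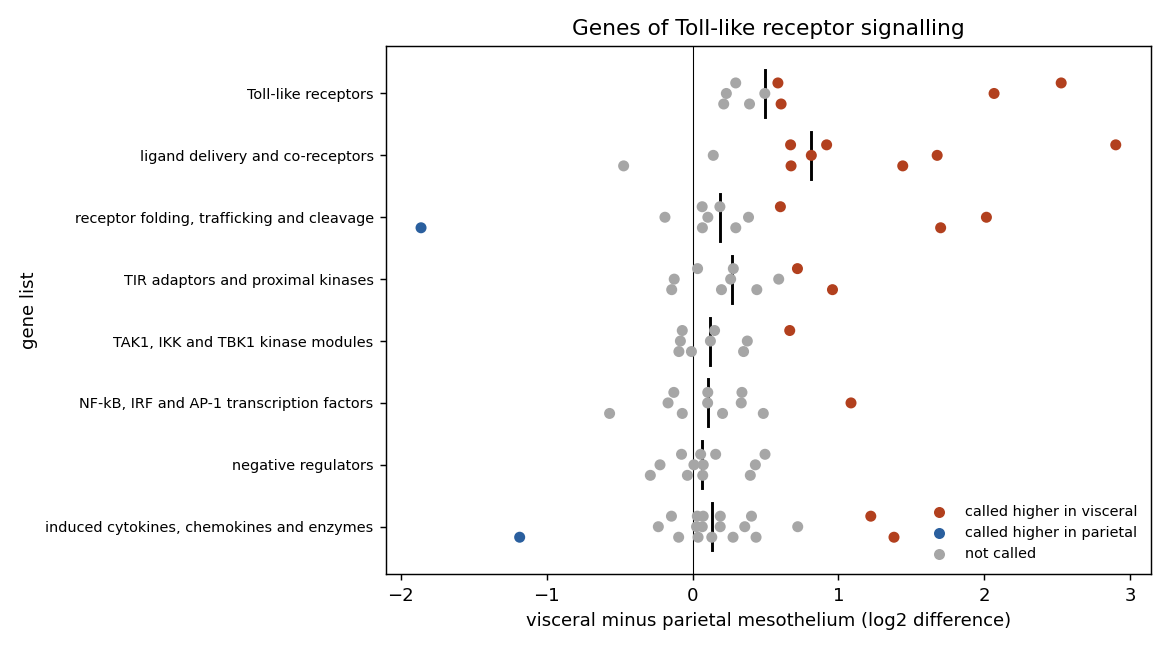
The x axis gives the log2 difference (visceral minus parietal) of the Toll-like receptor genes and of 7 groups of pathway genes (y axis). Each point is 1 gene, with calls in red (higher in visceral mesothelium) or blue (higher in parietal mesothelium) and all others in grey, and black bars are medians; 7 of 9 co-receptors and ligand carriers are red, whereas no negative regulator was called.

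Markers of other cell types were called higher in visceral mesothelium for some types and in parietal mesothelium for others. Their lists were chosen with earlier results of these data known, so the counts are descriptions and no list was tested. Of 16 macrophage markers, 14 were higher in visceral mesothelium, against 5.22% of all genes, with a median difference of 1.71. By adjusted p the first were Lyve1 (3.37) and Mrc1 (2.69). Their summed linear signal was 30036 and 31910 on the visceral arrays, against 7480 and 8401 on the parietal arrays. The differences of the macrophage markers ran from 0.37 to 3.37. That range held those of 6 receptors and not those of Tlr3, Tlr4 and Tlr6. The mesothelial range (-2.14 to 0.84), the fibroblast range (-1.24 to 0.73) and the B cell range (0.19 to 1.99) held every measured receptor but Tlr7 and Tlr8. Lying within such a range ties no receptor to a cell type. Of 9 B cell markers, 4 were higher in visceral mesothelium, of which Bank1 (1.99) and Cd79a (1.61) had the lowest adjusted p. Of 8 mast cell markers 7 were higher, of which Cpa3 (4.63) and Tpsb2 (2.56) had the lowest adjusted p, and the list ran from -0.38 to 4.63, a range that held all 9 receptors. Calls were made in 8 conventional dendritic cell markers (1, Cd209a at 0.95), 8 neutrophil markers (1, S100a9 at 0.67) and 8 markers of T and NK cells (1, Cd3g at 0.72). None of 6 markers of plasmacytoid dendritic cells, a type rich in Tlr7 and Tlr9, was called by limma, while Tcf4 passed without the fold minimum and 2 had an unadjusted p under 0.05. In the other direction, all 12 skeletal muscle markers were called higher in parietal mesothelium (median difference -5.04), with Myl1 (-7.28) and Acta1 (-5.48) lowest in adjusted p. So were 6 of 12 mesothelial markers (Msln at -2.14 and Krt7 at -1.78), 5 of 8 fibroblast markers (Pi16 at -1.24 and Thy1 at -0.87), 2 of 9 endothelial markers (Esam at -0.69 and Cdh5 at -0.60) and 1 of 7 adipocyte markers (Plin4 at -1.33), while 1 mesothelial marker and 1 fibroblast marker were called higher in visceral mesothelium. The summed linear signal of the 12 muscle markers was 64063 and 81107 on the parietal arrays, against 2044 and 2094 on the visceral arrays. That of the 12 mesothelial markers was 75786 and 72751 on the parietal arrays, against 48382 and 46252 on the visceral arrays. Probes differ in affinity, so these sums give no share of cells. The part of the listed cell types in the receptors' differences was not tested. In such bulk RNA, fewer cells of a type and less RNA per cell cannot be told apart.

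**Figure D4:**
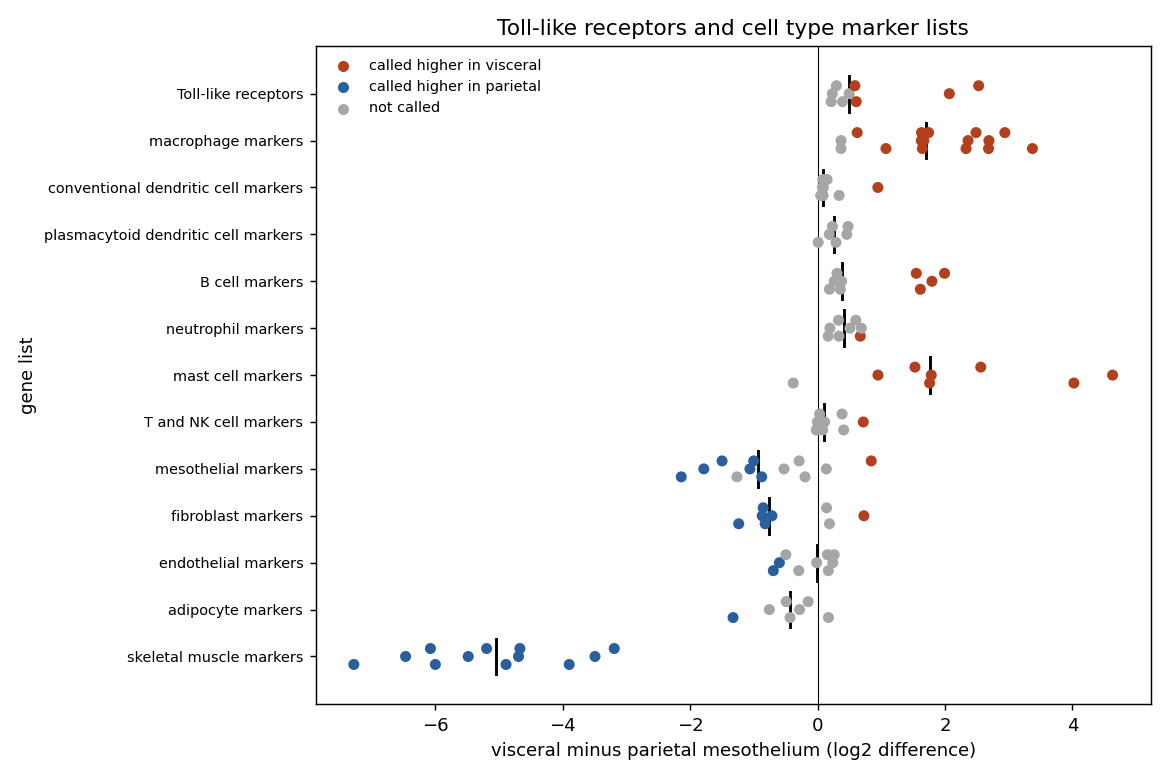
The x axis gives the log2 difference (visceral minus parietal) of the Toll-like receptor genes and of 12 lists of cell type markers (y axis). Each point is 1 gene, in red or blue for calls higher in visceral or in parietal mesothelium and in grey otherwise, with medians as black bars; 14 of 16 macrophage markers are red and all 12 skeletal muscle markers are blue.

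For each called receptor, the 3 genes with the most similar pattern were found by the Euclidean distance of their 4 log2 values, each centred on the gene's mean. Nearest to Tlr7 were the chemokine gene Ccl9 (distance 0.18), Vsig4, a complement receptor of resident macrophages (0.19), and an immunoglobulin kappa segment (0.23). Nearest to Tlr8 were Mrvi1 (0.04), the B cell scaffold gene Bank1 (0.09) and Gprc5b (0.12). Nearest to Tlr1 were Pbx3, Aplp1 and Myof, at 0.03 to 0.04, and nearest to Tlr2 were Fgd4, Slc25a45 and Ms4a4c, at 0.03 to 0.04. With 4 arrays such likeness is a description of the values alone.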

How the data were processed

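Total RNA of visceral and parietal mesothelium was measured on 4 arrays. The deposited values are log2 signals from RMA, in which the authors corrected background, equalized the arrays and summarised each probe set. Partek 6.6 is named in the submitters' processing notes, and the array library version is not given in the sources used here. These log2 values were used unchanged. Probes were named through a platform annotation with symbols updated by gene identifier (RefSeq, GRCm38.p6): of 35556 probes, 21789 had 1 symbol, 1621 several and 12146 none, and genes were named only from probes with 1 symbol. Where several probes named a gene, the one highest on average stood for it, which gave 19938 genes.

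Differences were fitted on all 4 arrays without a block by limma 3.58.1 (R 4.3.3), after the code had been tested on simulated data. The smallest two-sided exact permutation p that 2 arrays against 2 allow is 0.333, so single genes were not permuted. The methods' one-way ANOVA, rerun here on the same genes, was an alternative. So were other normalizations, filters, variance priors, thresholds, the replicate number as a block and fits without 1 array. The number of arrays limits the precision. Scan dates were not used here.

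The receptors were given by name, and the gene lists were chosen with earlier results of these data known. Named genes are all receptors, up to 4 called genes per direction and pathway list, the proteins that form complexes with the receptors or their signalling (Irak3 included), the 2 called genes of lowest adjusted p per marker list and the 3 genes nearest to each called receptor. Genes outside this rule (Upk3b, Calb2, Xist, Uty, Fos, Cyld, Tcf4, Tnf, Il1b, Il6, Tril, Ctsb, Ctsl, Tlr12), the motifs and the lower bounds of the folds of Tlr7 and Tlr8 were chosen after the values or sequences were seen. Of the pathway and marker lists, Irak4, Traf3, Ripk1, Chuk, Nfkb1, Il1rl1, Trac, Lck and Cfd, among others, were not analysed here.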

Additional observations from a re-analysis of the deposited data

How the results depend on the processing

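With all receptors in the fit, the 4 calls (Tlr1, Tlr2, Tlr7, Tlr8) were also made with all probes fitted together, with the mean of a gene's probes and with either other variance prior. Tlr2 was lost under median centring, quantile normalization and cyclic loess. Limma's treat against a fold of 1.5, a fold of at least 2 and an adjusted p under 0.01 each left 2 receptors, Tlr7 and Tlr8. Among genes above the median signal, 1 of 3 receptors fitted was called, and among those above the 95th percentile of odorant receptor genes 2 of 6, since the filters removed the other called receptors. Tlr7 and Tlr13 passed the second filter through their visceral signal alone, so this count lends their differences no support. As rerun here on genes named by probes with 1 symbol, the methods' ANOVA called 0 receptors, 0 pathway genes and 0 of all genes after adjustment. Without adjustment it called 4 receptors, 17 pathway genes and 1582 genes. The paper reports differing probes in both directions from an ANOVA with the same correction and thresholds. That ANOVA was run in Partek on its own set of probes, and why the outcomes differ was not tested. Leaving out each array gave 2 to 4 receptors, 18 to 20 pathway genes and 1696 to 2095 genes; without visceral replicate 2 only Tlr7 and Tlr8 were called. Against 1915 genes and 18 pathway genes in the fit as reported, treat called 724 and 8, and a fold of at least 2 left 978 and 10. The sign of every receptor's difference held under each alternative that could be fitted. Deviations of arrays with the same replicate number correlated at 0.36, but the labels do not say that the number marks a shared animal or day. With the replicate block, the same 4 receptors, 19 pathway genes and 2008 genes were called.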

Other observations

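Tlr12, a mouse receptor for profilin that was not on the list, had a log2 signal of 6.08 and 6.03 in visceral mesothelium, against 6.05 and 6.16 in parietal mesothelium. Its difference of -0.05 did not pass (adjusted p = 0.786 from limma, n = 2 arrays per tissue), and all 4 values lay below the 95th percentile of the odorant receptor genes.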
